A study of Mus musculus with 8 samples.

Results

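The reproductive Nlrp genes are a group of mouse NOD-like receptor genes known mainly from oocytes and early embryos. The 10 taken here, Nlrp4a, Nlrp4b, Nlrp4c, Nlrp4e, Nlrp4f, Nlrp5, Nlrp9a, Nlrp9b, Nlrp9c and Nlrp14, were found by symbol among the 55487 genes of a table of raw counts, each in 1 row. They were selected on their symbols after the counts of these libraries had already been compared, with Nlrp4f known to be among the larger falls of KO against WT. The KO over WT differences below therefore describe the genes and give no independent evidence. RNA was sequenced from flow-sorted cells of the testes of fetal C57BL/6 mice, labelled purified germ cells. The 4 libraries labelled KO came from Rhox10-null;Oct4-eGFP+/+ mice and the 4 labelled WT from littermate Oct4-eGFP+/+ mice. Both groups therefore carry the same reporter, a green fluorescent protein under the control of Oct4 (Pou5f1). Neither the fetal age nor whether libraries stem from separate animals is given in the labels, so p-values measure the spread between libraries, which may be technical.

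Proteins of the NLRP family share a nucleotide-binding NACHT domain and leucine-rich repeats, usually behind an amino-terminal pyrin domain. Some members, such as Nlrp3, build inflammasomes in immune cells, while a reproductive branch that multiplied in rodents is read mainly in germ cells. Nlrp5, also called Mater, encodes a core protein of the subcortical maternal complex of the oocyte, which the embryo needs for its first cleavages. Nlrp4f has been tied to the same complex in mouse, and Nlrp14 is needed for fertility in mouse.

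The library totals were 16346977 to 20311338 counts. Rhox10, the homeobox gene named in the genotype, had 14, 10, 18 and 22 counts in KO-labelled libraries 1 to 4 and 18, 25, 19 and 17 in WT-labelled libraries 1 to 4, so the groups overlapped and a loss of its reads was not seen. The extent of the Rhox10 deletion is not given in the sources used here, and all directions below are between labels. Germ-cell markers were read in every library, but so were markers of other testis cells at higher levels per length. Summed over their lists, in TPM (counts per exon length, scaled to a fixed total), 12 germ-cell genes had 32.8 to 39.4 in KO-labelled libraries and 35.5 to 43.8 in WT-labelled libraries. The 6 Leydig cell genes had 511 to 601 TPM in KO-labelled libraries and 556 to 643 in WT-labelled libraries, and the 7 Sertoli cell genes had 110 to 123 TPM and 113 to 129 TPM in the same order. Ddx4, the VASA helicase gene of germ cells, was at 7.91 to 9.59 TPM in KO-labelled libraries and 7.88 to 10.4 in WT-labelled libraries, while Cyp17a1, a steroid enzyme gene of Leydig cells, was at 241 to 280 and 265 to 306. By these markers the libraries were not germ-cell RNA alone.

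**Figure D1:**
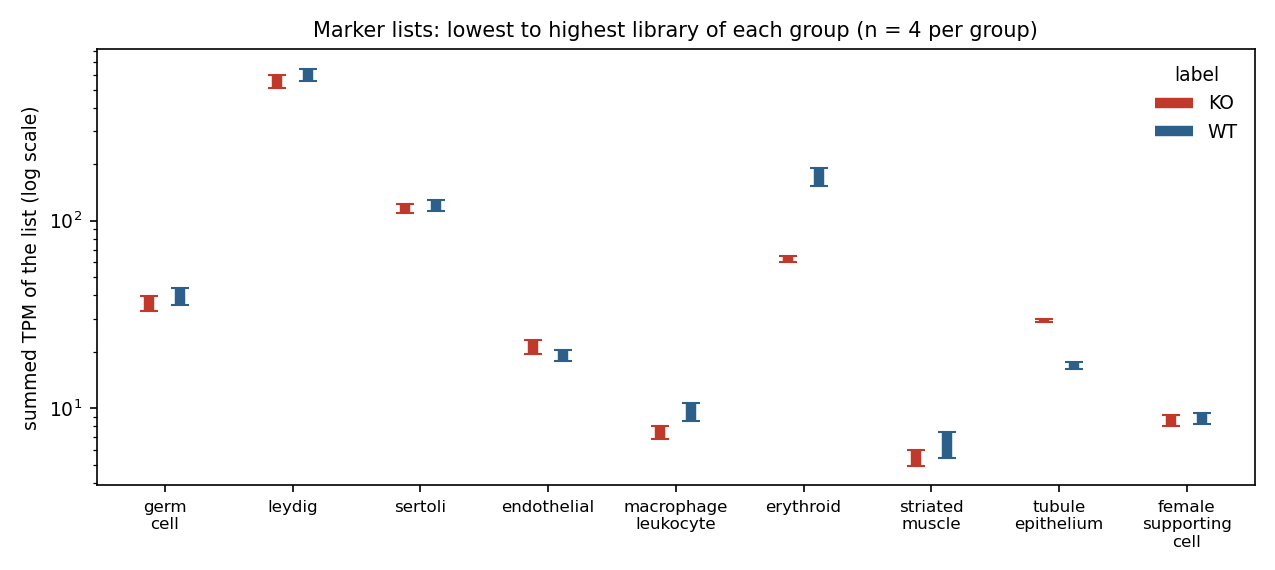
Summed TPM (log axis) of 9 marker lists; each bar runs from the lowest to the highest of the 4 libraries of a group, KO at the left and WT at the right. The Leydig list lies above the germ-cell list in both groups, and the erythroid and tubule lists are the ones whose groups stand farthest apart.

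The genes lie in a few places of the genome (coordinates in GRCm38, from the count table). On chromosome 7 lie 9 of the 10, and Nlrp4f lies alone on chromosome 13, from 65177111 to 65205977 on the minus strand. Nlrp4c lies at 6045161 to 6105150 of chromosome 7, Nlrp9b at 19991465 to 20073306 and Nlrp5 at 23385889 to 23441922, all on the plus strand. Nlrp4e lies just before Nlrp5, at 23301192 to 23362277. All 10 are annotated as protein-coding, with coding lengths of 2589 bases (Nlrp4b) to 3333 bases (Nlrp5) in the longest GENCODE M21 coding transcript.

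The copies resemble each other closely enough for reads to be shared, though not evenly. Coding sequences of Nlrp4c and Nlrp4e were 93.9% identical over 2934 aligned bases, the closest of all pairs, and Nlrp9a and Nlrp9c were 87.4% identical. Nlrp4f was 83.1% identical to its nearest member, Nlrp4a. Of all runs of 50 bases in the transcripts of a gene, 5.95% occurred in transcripts of another gene for Nlrp4f, mostly in the pseudogene Nlrp4g, 10.71% for Nlrp4c and 7.79% for Nlrp9b. The share was 36.68% for Nlrp4e, mostly with pseudogenes of chromosome 7 such as Gm16443, and 0 for Nlrp4b and Nlrp14. At 100 bases it was at most 2.11% for all members except Nlrp4e, where it was 11.48%. Gm16443 and 4 other pseudogene copies, 5 in all, had identical counts in every library (2, 5, 4 and 8 in KO-labelled libraries 1 to 4 and 5, 2, 1 and 8 in WT-labelled libraries 1 to 4). How multi-mapping reads were counted is not given in the sources used here. The read length is not given there either, so the share of ambiguous reads per gene is not known.

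The stretches before the annotated starts are alike in some copies and not in others. RefSeq windows of 300 bases, 250 before the start and 50 after it (build GRCm38.p6), were found for 9 of the 10 members. Shown are the bases before the start, up to the first annotated exon base, for Nlrp4c and Nlrp9b, which were called lower, and for Nlrp4a and Nlrp4b, whose windows hold the same marked stretch as that of Nlrp4c. They are written 5′ to 3′. Capitals mark the 12-letter stretch CCAATCACATGG, which holds a CCAAT box and an E-box (CANNTG) and was picked out after the sequences had been seen. The Nlrp9b start lies inside the gene's annotated span, after its first exons, and the Nlrp4a window belongs to the second of its 2 RefSeq starts.
Nlrp4c, chr7:6044911-6045160, plus strand: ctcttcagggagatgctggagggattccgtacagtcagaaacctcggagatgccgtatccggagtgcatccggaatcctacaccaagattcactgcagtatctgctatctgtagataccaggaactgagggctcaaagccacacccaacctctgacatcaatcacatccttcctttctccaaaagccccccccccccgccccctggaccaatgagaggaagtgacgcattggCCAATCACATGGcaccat
Nlrp4a, second start, chr7:26435364-26435613, plus strand: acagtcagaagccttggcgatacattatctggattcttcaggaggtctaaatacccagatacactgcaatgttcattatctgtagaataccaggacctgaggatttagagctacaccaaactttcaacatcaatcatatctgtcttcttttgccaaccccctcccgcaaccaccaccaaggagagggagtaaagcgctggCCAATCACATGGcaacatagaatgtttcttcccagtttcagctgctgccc
Nlrp4b, chr7:10687543-10687788, plus strand: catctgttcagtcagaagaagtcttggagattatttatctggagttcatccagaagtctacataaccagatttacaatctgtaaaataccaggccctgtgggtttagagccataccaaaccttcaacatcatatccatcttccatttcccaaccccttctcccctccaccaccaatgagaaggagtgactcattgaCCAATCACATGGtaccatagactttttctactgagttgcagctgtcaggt
Nlrp9b, chr7:20007773-20008022, plus strand: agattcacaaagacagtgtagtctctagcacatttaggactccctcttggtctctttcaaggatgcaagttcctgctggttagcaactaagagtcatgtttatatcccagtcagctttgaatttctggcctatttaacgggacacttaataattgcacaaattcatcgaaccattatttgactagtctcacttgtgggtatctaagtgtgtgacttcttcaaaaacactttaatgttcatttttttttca

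The 12-letter stretch begins 18 bases before the start of Nlrp4c, 50 before that of Nlrp4a and 54 before that of Nlrp4b. It was chosen as the longest run starting with CCAAT that a window of each of these 3 genes holds. Its presence in them was therefore fixed by the choice. It was found, on either strand, in 7 of 32851 RefSeq windows (0.0213%), 4 of them windows of these 3 genes, and nothing is read from that share. The windows of Nlrp4c and Nlrp4a were 80.8% identical over 260 aligned bases, and those of Nlrp4c and Nlrp4b 81.0% over 258. The most alike pair was Nlrp9a and Nlrp9c, at 97.2% over 253. The gapped alignments gave a median of 74.3% over all 63 pairs of member windows, and 71.4% over 248 bases for the windows of Nlrp4f and Nlrp9b. End gaps were free, so some pairs aligned over few bases, down to 17 for Nlrp4c and Nlrp4f. The median is therefore no baseline for the longer alignments. The window of Nlrp4e, whose coding sequence is the closest to that of Nlrp4c, was 70.1% identical to the Nlrp4c window over 251 aligned bases and does not hold the stretch. Among the motifs searched on both strands, CCAAT was in 37.41% of all windows, CANNTG in 72.31% and TAATTG, a core of the sites of the oocyte factor NOBOX, in 8.0% (TAATTA in 5.29%, TATAAA in 13.62% and CACGTG in 7.15%). TAATTG was found in the windows of Nlrp9a and Nlrp9b, and CANNTG in every member window. TAATTA was in a window of Nlrp5 and of Nlrp9a, TATAAA in a window of Nlrp5 and of Nlrp9b, and CACGTG in none. CCAAT was not particular to the marked genes. It was in a window of each of Nlrp4a, Nlrp4b, Nlrp4c, Nlrp4e, Nlrp5, Nlrp9a and Nlrp9c. The Nlrp9b window holds no CCAAT on either strand. For Nlrp4f, all 250 bases before the RefSeq start lie in exons of longer GENCODE transcripts, so that window is not its upstream region and is not shown.

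Nlrp4f, Nlrp4c and Nlrp9b had lower levels in every KO-labelled library than in any WT-labelled library. Levels are CPM, counts relative to the TMM-scaled library size. Calls rest on edgeR's quasi-likelihood test over 23190 genes, with Benjamini-Hochberg adjustment and a threshold of 0.05. Of the 10 members 5 had enough reads to be tested, 3 were called lower, none higher, and 2 were not called. Over all genes tested, 5.14% were called, 2.8% lower and 2.35% higher, 4.72% had every KO-labelled library below every WT-labelled library, and among the 7529 genes no more abundant than Nlrp4c 0.89% were called lower. Because the contrast was known when the genes were picked, nothing is read from that comparison. The median log2 fold change of the 5, KO over WT, was -0.71, and that of all genes was 0.00. The member at that median was Nlrp4e, with few counts, and without KO replicate 2 the median was -1.16. Nlrp4e passed the filter on low counts with 1 KO and 3 WT libraries over its limit, and Nlrp9b with 0 KO and 4 WT. For this reason, and because the genes were picked with the contrast known, nothing is read from the median either. In bulk RNA, fewer cells of a type and less RNA per cell cannot be told apart.

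**Figure D2:**
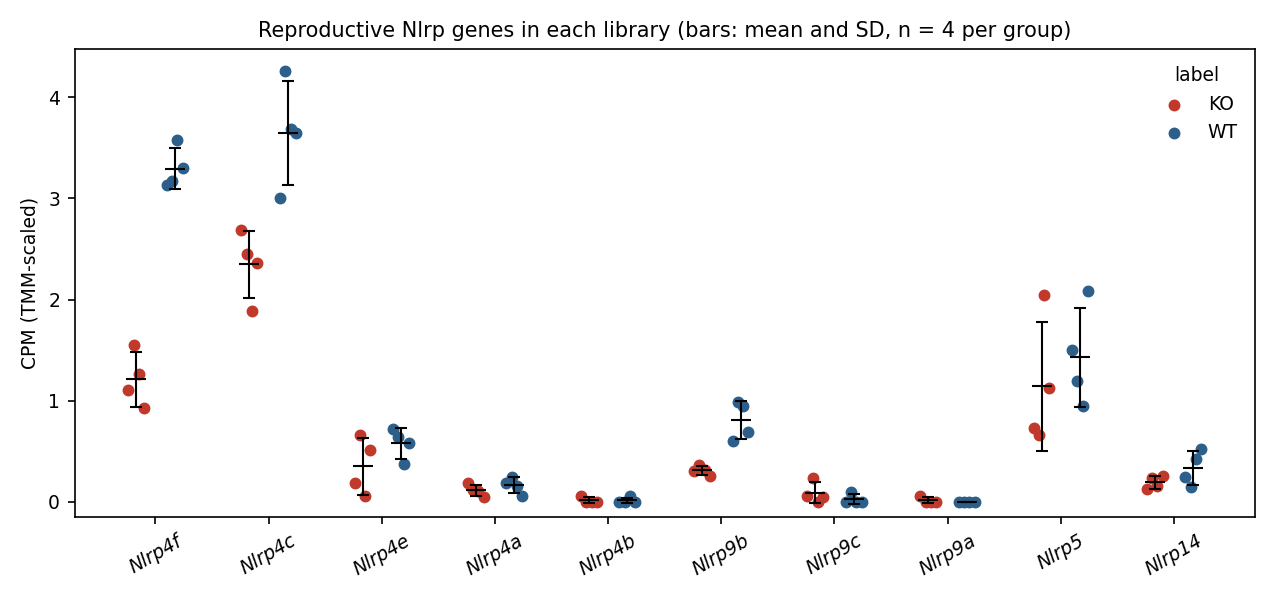
CPM of each member in each library (points), KO at the left of each pair and WT at the right, with the mean and SD of 4 libraries per group. The KO points of Nlrp4f, Nlrp4c and Nlrp9b lie below all of their WT points, and the 5 members without a test lie near 0.

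Nlrp4f, which like Nlrp5 is tied to the maternal complex, is the only member on chromosome 13 and had the smallest p. It had 1.10, 1.55, 1.26 and 0.922 CPM in KO-labelled libraries 1 to 4, against 3.13, 3.17, 3.58 and 3.30 CPM in WT-labelled libraries 1 to 4. Every KO value was below 2 CPM and every WT value above 3, so the groups were far apart. The underlying counts were 18, 26, 24 and 18 in KO-labelled libraries and 52, 64, 68 and 57 in WT-labelled libraries. The means were 1.21 ± 0.268 CPM in KO-labelled libraries and 3.29 ± 0.203 in WT-labelled libraries (SD, n = 4 each). The log2 fold change was -1.45 with a standard error of 0.22, or 0.366 of the WT level, with a 95% interval on the log2 scale of -1.88 to -1.02 (edgeR adjusted p = 4.14e-08). Its pseudogene partner Nlrp4g, with which it shares the most sequence, had 12 counts in all in KO-labelled libraries and 10 in WT-labelled libraries.

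Nlrp4c, a paralogue of the same Nlrp4 branch, was the most abundant member. It had 2.69, 2.45, 1.89 and 2.36 CPM in KO-labelled libraries 1 to 4, against 3.01, 4.26, 3.68 and 3.64 CPM in WT-labelled libraries 1 to 4. The groups did not overlap, but WT replicate 1 lay close to KO replicate 1. The means were 2.35 ± 0.335 CPM in KO-labelled libraries and 3.65 ± 0.512 in WT-labelled libraries (SD, n = 4 each). The log2 fold change was -0.65 with a standard error of 0.18, and its interval ran from -1.01 to -0.29 (edgeR adjusted p = 0.0140). The call was lost without KO replicate 3 (-0.56, edgeR adjusted p = 0.0970) and without WT replicate 2 (-0.56, edgeR adjusted p = 0.0904).

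Nlrp9b, whose protein is also known from an antiviral response of the mouse intestine, had few reads. It had 5, 6, 6 and 5 counts in KO-labelled libraries 1 to 4, against 10, 20, 18 and 12 in WT-labelled libraries 1 to 4. No KO value reached the lowest WT value. The means were 0.309 ± 0.0420 CPM in KO-labelled libraries and 0.809 ± 0.190 in WT-labelled libraries (SD, n = 4 each), and the log2 fold change was -1.39 with a standard error of 0.42 (edgeR adjusted p = 0.0285). It passed the filter on low counts through the WT libraries alone, with 0 KO and 4 WT libraries over the limit, so it entered the test only through its WT counts. With no filter it was not called (-1.39, edgeR adjusted p = 0.0695). Leaving out any of the 4 KO libraries, WT replicate 2 or WT replicate 3 also ended the call, with log2 fold changes of -1.46 to -1.27 and edgeR adjusted p of 0.0563 to 0.113.

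Nlrp4e and Nlrp5 were tested and not called, with wide intervals. Nlrp4e, 93.9% identical to Nlrp4c in coding sequence, had 3, 11, 1 and 10 counts in KO-labelled libraries 1 to 4. In WT-labelled libraries 1 to 4 it had 12, 13, 7 and 10. KO replicates 1 and 3 were low and the other 2 lay among the WT values. Nlrp4e passed the filter on low counts mainly through WT libraries, with 1 KO and 3 WT libraries over the limit. Its log2 fold change was -0.71 with an interval of -1.60 to 0.18 (edgeR adjusted p = 0.478), and ran from -1.16 without KO replicate 2 to -0.34 without KO replicate 3. Nlrp5 had 12, 11, 39 and 22 counts in KO-labelled libraries 1 to 4 and 25, 24, 18 and 36 in WT-labelled libraries 1 to 4. KO replicate 3 and WT replicate 4 were the highest libraries, and the groups overlapped. The Nlrp5 means were 1.14 ± 0.638 CPM in KO-labelled libraries and 1.43 ± 0.490 in WT-labelled libraries (SD, n = 4 each). Its log2 fold change was -0.29 with an interval of -0.85 to 0.27 (edgeR adjusted p = 0.715). It ran from -0.73 without KO replicate 3 to -0.06 without WT replicate 4.

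**Figure D3:**
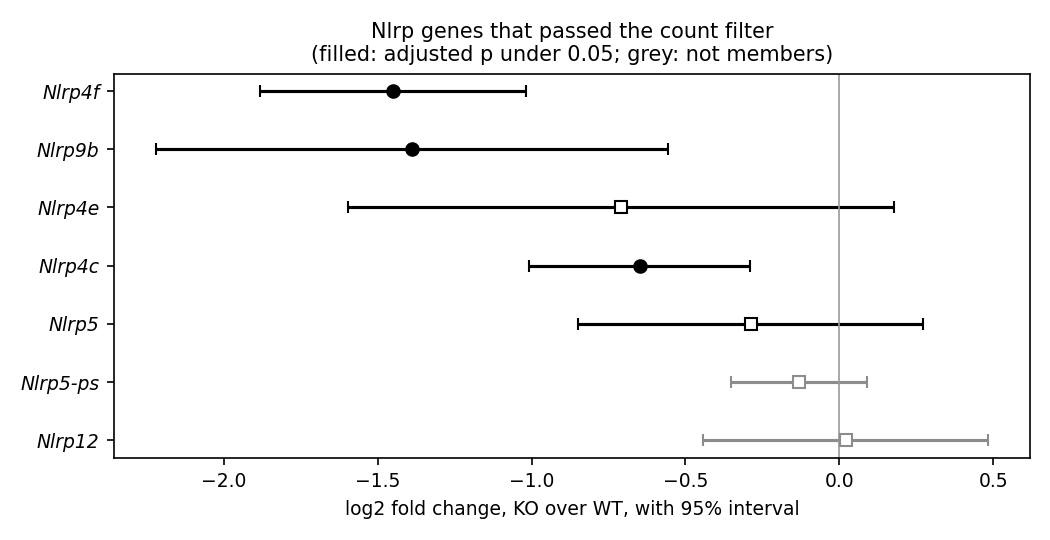
Log2 fold change, KO over WT, with 95% intervals for the 5 tested members (black) and the 2 other tested Nlrp genes (grey); filled circles were called. The intervals of Nlrp4f, Nlrp9b and Nlrp4c lie below 0, and those of the other 4 genes cross it.

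The other 5 members had too few reads to be tested. Nlrp14, the gene known from male germ cells, had 2, 4, 3 and 5 counts in KO-labelled libraries 1 to 4 and 4, 3, 8 and 9 in WT-labelled libraries 1 to 4. The ratio of its summed counts, KO over WT and scaled by library size, was 0.595, with an exact 95% interval of 0.285 to 1.20, which reflects counting error alone. Nlrp4a had 8 counts in all in KO-labelled libraries and 12 in WT-labelled libraries, a ratio of 0.680 (0.241 to 1.81). Neither difference could be told from counting error. Nlrp9c had 6 counts in KO-labelled libraries, 4 of them in replicate 2, and 2 in WT-labelled libraries, both in replicate 2 (ratio 3.06, interval 0.547 to 31.0). Nlrp4b had 1 count in each group. Nlrp9a had 1 count in KO-labelled libraries and 0 in WT-labelled libraries. A count of 0 allows up to 3, here for the 4 WT-labelled libraries summed.

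Summing the copies lessens the effect of how reads shared among the summed genes were divided. It does not touch reads shared with genes outside the sums. Nlrp4e shared 1033 runs of 50 bases with Gm16443 and 276 with Nlrp4c. Nlrp4f shared 162 with Nlrp4g and 0 with Nlrp4c. The 5 Nlrp4 genes together had 4.22, 4.78, 3.31 and 3.84 CPM in KO-labelled libraries 1 to 4, against 7.04, 8.33, 7.84 and 7.58 CPM in WT-labelled libraries 1 to 4. The groups did not overlap, and the ratio of the summed counts was 0.518 (exact 95% interval 0.448 to 0.598, counting error only). The 3 Nlrp9 genes averaged 0.412 ± 0.135 CPM in KO-labelled libraries and 0.833 ± 0.225 in WT-labelled libraries (SD, n = 4 each), and their ratio was 0.477 (0.296 to 0.753). The KO library with the most Nlrp9 reads, replicate 2, almost reached the lowest WT library. Most Nlrp9 counts were of Nlrp9b, with 22 in KO-labelled libraries and 60 in WT-labelled libraries. Nlrp9c (6 against 2) and Nlrp9a (1 against 0) went the other way. All 10 genes together had 5.79 ± 0.358 CPM in KO-labelled libraries and 10.3 ± 0.679 in WT-labelled libraries (SD, n = 4 each). Without Nlrp4f the other 9 had 4.40 to 4.72 CPM in KO-labelled libraries and 6.26 to 7.58 in WT-labelled libraries, so the sum was lower without that gene too. That sum still holds the called Nlrp4c (167 counts in KO-labelled libraries and 269 in WT-labelled libraries) and Nlrp9b. It is therefore no separate evidence for the other members.

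Per length, the members' mean levels ran from 0.00143 TPM (Nlrp9a) to 0.447 TPM (Nlrp4c). Nlrp4c had a mean of 0.447 ± 0.122 TPM (SD, n = 8 libraries), Nlrp4f 0.348 ± 0.179 and Nlrp5 0.159 ± 0.0707. Nlrp9b and Nlrp4e followed at 0.0892 ± 0.0460 and 0.0813 ± 0.0420 TPM. Their order depended on the group: Nlrp9b averaged 0.0490 TPM and Nlrp4e 0.0602 in KO-labelled libraries, against 0.129 and 0.102 in WT-labelled libraries. Each gene in this order overlapped the next over the 8 libraries, so no neighbouring pair was separated beyond its spread. Within libraries, Nlrp4c exceeded Nlrp4f in 6 of 8, Nlrp4f exceeded Nlrp5 in 7 of 8 and Nlrp5 exceeded Nlrp9b in 6 of 8. Nlrp14 (0.0448 TPM), Nlrp4a (0.0169), Nlrp9c (0.00548), Nlrp4b (0.00197) and Nlrp9a (0.00143) closed the order. Of the counts of all members, 414 in KO-labelled libraries and 754 in WT-labelled libraries, Nlrp4c held 40.3% in KO-labelled libraries and 35.7% in WT-labelled libraries. Nlrp4f held 20.8% in KO-labelled libraries and 32.0% in WT-labelled libraries. Nlrp5 held 84 of these counts in KO-labelled libraries and 103 in WT-labelled libraries.

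**Figure D4:**
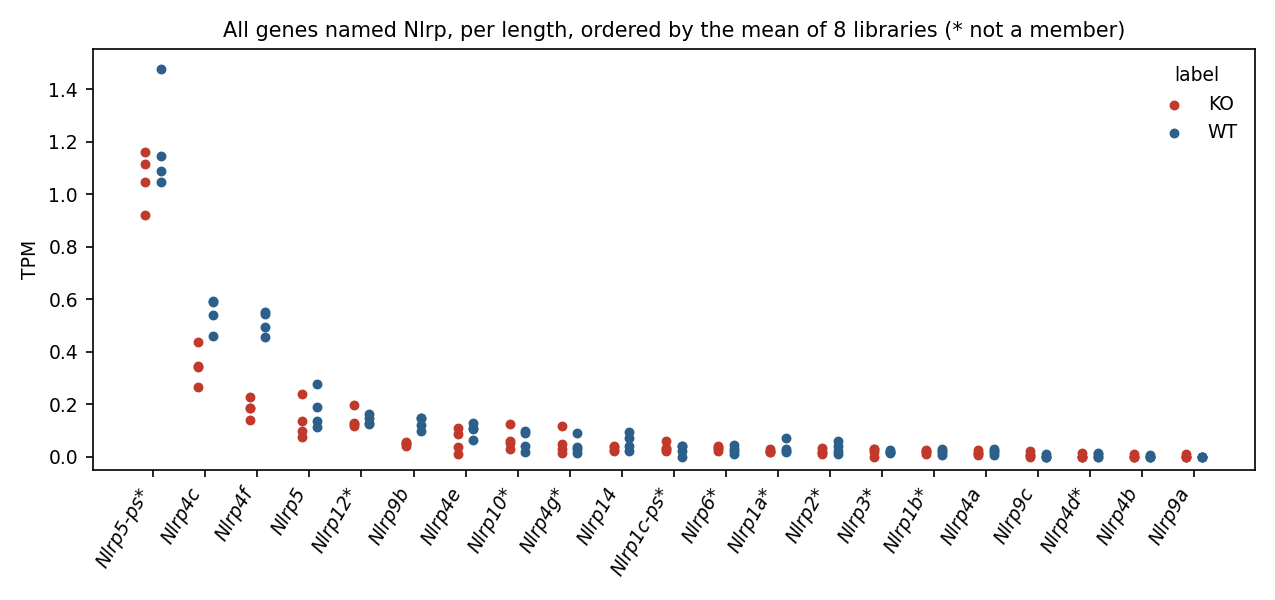
TPM of all 21 genes named Nlrp in each library, KO left and WT right of each position, ordered by the mean of 8 libraries; asterisks mark genes that are not members. Nlrp5-ps stands above 0.9 TPM in every library, and Nlrp4c and Nlrp4f have the highest means among the members.

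Among the 11 other genes named Nlrp, 2 were tested and 0 were called by edgeR, DESeq2 or limma, with 0 at an unadjusted edgeR p under 0.05. Nlrp5-ps, a transcribed pseudogene that shares 315 runs of 50 bases with Nlrp5, had 1.13 ± 0.161 TPM (SD, n = 8 libraries), above every member. In CPM it was at 7.79 ± 0.557 CPM in KO-labelled libraries and 8.56 ± 0.939 in WT-labelled libraries (SD, n = 4 each). Its log2 fold change was -0.13 with an interval of -0.35 to 0.09 (edgeR adjusted p = 0.649). Nlrp12, a gene of myeloid cells, was at 1.80 ± 0.319 CPM in KO-labelled libraries and 1.77 ± 0.237 in WT-labelled libraries (log2 fold change 0.02, edgeR adjusted p = 0.984). Nlrp2, an oocyte gene at 5298547 to 5351035 of chromosome 7, had 8 counts in all in KO-labelled libraries and 15 in WT-labelled libraries (ratio 0.544, 0.200 to 1.37).

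Of the tested genes around the called members, 1 of 28 was called, against 5.14% of all genes tested. With so few genes, nothing is read from that count. Within 250 kb of Nlrp4f, 12 other genes were tested and 0 were called, with log2 fold changes of -0.22 to 0.21. Around Nlrp4c it was 0 of 10 (-0.30 to 0.32), and around Nlrp9b 1 of 6 (0.00 to 0.51). For the first pair of sets, DESeq2 and limma also called 0, and 0 had an unadjusted edgeR p under 0.05. The exception was Bcam, which encodes a cell adhesion molecule of epithelia, at 40.4 ± 1.59 CPM in KO-labelled libraries and 35.0 ± 1.07 in WT-labelled libraries (SD, n = 4 each; log2 fold change 0.20, edgeR adjusted p = 0.00647). Its position relative to Nlrp9b is -220 kb, on the side of lower coordinates. By exons, only Nlrp9b overlaps another annotated gene, sharing 3.65% of its exon bases with the pseudogene Gm18877, which had 4 counts in all.

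**Figure D5:**
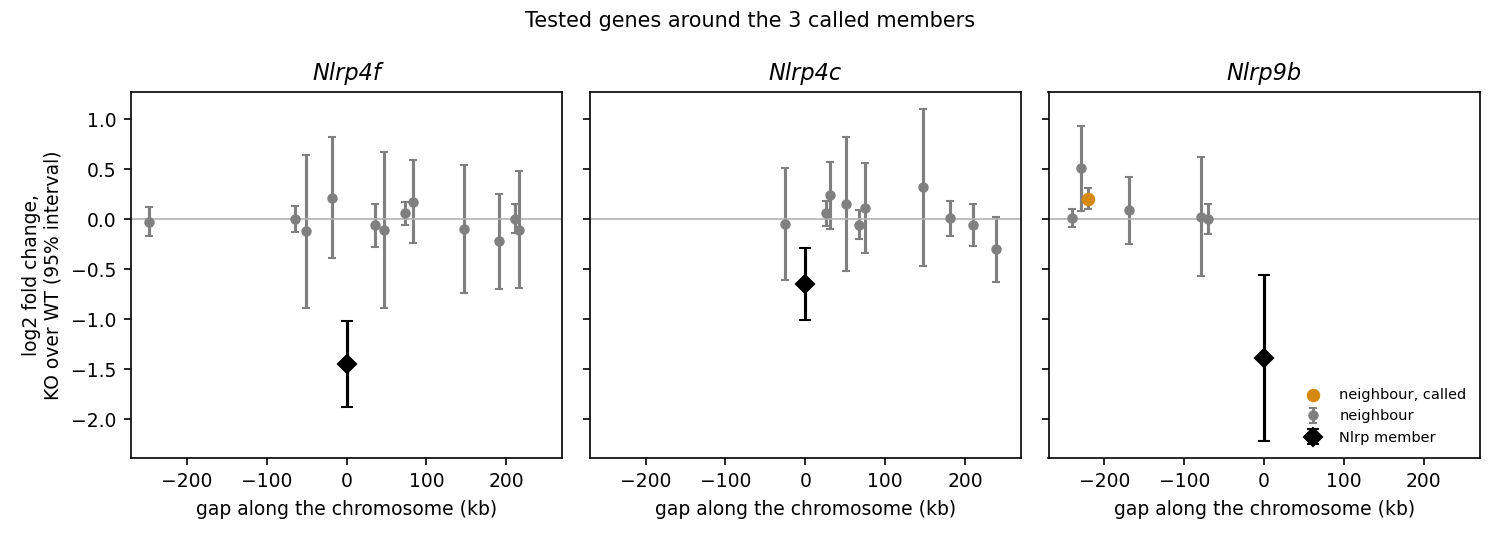
Log2 fold change, KO over WT, with 95% intervals for tested genes within 250 kb of each called member, placed by the gap along the chromosome (negative: lower coordinates). The member (diamond) lies below 0 in each panel, and its neighbours scatter around 0, with Bcam called higher beside Nlrp9b.

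None of the tested genes for proteins that Nlrp5 works with in the oocyte was called, and Khdc3 and Nlrp2 had too few reads to be tested. Over all genes tested 5.14% were called. With so few genes, nothing is read from the counts of calls in this or the other lists of this paragraph. Of 8 genes of the subcortical maternal complex and its associates 6 were tested and 0 were called by edgeR, DESeq2 or limma, with 0 at an unadjusted edgeR p under 0.05 and a median log2 fold change of 0.05. Ooep, which encodes a protein of the complex with a KH-like domain, was at 1.17 ± 0.405 CPM in KO-labelled libraries and 0.791 ± 0.226 in WT-labelled libraries (SD, n = 4 each; log2 fold change 0.58, edgeR adjusted p = 0.389). Uhrf1, which encodes a DNA methylation factor, was at 81.3 ± 1.74 and 79.2 ± 1.23 CPM in the same order (log2 fold change 0.04, edgeR adjusted p = 0.721). Of 8 transcription factor genes of early oocytes 4 were tested, 1 rose and none fell. Sohlh2, a factor gene of spermatogonia and oocytes, rose to 2.43 ± 0.694 CPM in KO-labelled libraries, against 1.36 ± 0.281 in WT-labelled libraries (SD, n = 4 each; log2 fold change 0.83, edgeR adjusted p = 0.0145). DESeq2 and limma called 0 of these 4. Nobox and Figla, which drive oocyte genes, were too low to test. Of 12 genes of growing oocytes 7 were tested, and 1 rose, Dppa3, the Stella gene (0.41, edgeR adjusted p = 0.00117). Of 23 inflammasome and immune NLR genes 13 were tested and 0 called by edgeR, DESeq2 or limma (median 0.02, 0 at an unadjusted edgeR p under 0.05). The 2 with the smallest p were Nod2, a bacterial sensor gene (0.71, edgeR adjusted p = 0.331), and Naip2, another sensor gene (-0.60, edgeR adjusted p = 0.461).

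Markers of several cell types moved with the label too. The lists were chosen with earlier results of these data known, so the counts below describe the listed genes and give no independent evidence. Over all genes tested, 2.35% were called higher and 2.8% lower. In the germ-cell list 11 of 12 genes were tested, of which 1 rose (Dazl, an RNA-binding protein gene, 0.37) and 3 fell, with a median of -0.14. The falls were Piwil2 (-0.45) and Tdrd1 (-0.43), genes of the piRNA pathway, and Tex101, a surface protein gene of male germ cells (-1.14). The summed level of the germ-cell list was 175 to 190 CPM in KO-labelled libraries and 192 to 209 in WT-labelled libraries. Erythroid genes fell for 5 of 8, led by Hba-a1 (-1.52), with sums of 94.0 to 98.7 CPM in KO-labelled libraries and 225 to 239 in WT-labelled libraries. Leydig genes fell for 5 of 6, with sums of 2771 to 2809 CPM in KO-labelled libraries and 3051 to 3082 in WT-labelled libraries. Striated muscle genes fell for 2 of 7 tested. All 11 tubule epithelium genes rose, with sums of 117 to 132 CPM in KO-labelled libraries and 65.0 to 72.8 in WT-labelled libraries. Of the other lists, 1 of 7 Sertoli genes and 1 of 5 tested macrophage genes fell, 2 of 6 endothelial genes rose (1 by DESeq2 and 1 by limma), and 0 of 5 tested genes of female supporting cells were called by edgeR, DESeq2 or limma, with 1 at an unadjusted edgeR p under 0.05. The mean log2 CPM of 7 somatic and blood lists was 3.89 to 3.95 in KO-labelled libraries and 3.93 to 3.99 in WT-labelled libraries. With it as a covariate, Nlrp4f was called lower (-1.42, edgeR adjusted p = 0.000896), while Nlrp4c (-0.75, edgeR adjusted p = 0.136) and Nlrp9b (-1.44, edgeR adjusted p = 0.264) were not. That covariate averages lists that moved in opposite directions, so it follows no single cell type, and the part of these cell types in the result was not tested.

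The genes whose levels followed Nlrp4f most closely were found by Pearson's r of log2 CPM over the 8 libraries, among 17590 genes averaging at least 1 on the log2 CPM scale. They were Scd2, a fatty acid desaturase gene (r = 0.991), Psmd2, a proteasome subunit gene (0.987), Hist1h2bn, a histone gene (0.983), Cyp17a1 (0.983) and Phf13, a chromatin reader gene (0.982). All 5 were called lower, with log2 fold changes of -0.25 to -0.08, and r over all 8 libraries includes that split between the labels. Between Nlrp4f and Nlrp9b r was 0.952 over the 8 libraries and 0.521 after each group's mean was removed. Between Nlrp4f and Nlrp4c the same pair of values was 0.832 and -0.05.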

How the data were processed

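Total RNA of sorted germ cells was made into libraries with a low-input stranded kit, per the labels' protocols. The authors deposited raw counts of reads per gene, with no normalization. Per the submitters' processing notes, STAR 2.5.2b, Subread, featureCounts and DESeq2 were used with GRCm38; settings for strand and for reads with several positions are not given in the sources used here. Of 55487 IDs 55141 matched a gene symbol and 55227 were found in GENCODE M21.

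The counts were tested in R 4.3.3 with edgeR 4.0.16: filterByExpr, TMM scaling, robust quasi-likelihood test, KO over WT, two-sided, no other term. Alternatives were other scalings and filters, DESeq2 1.42.0, limma 3.58.1 (voom), a replicate block, a covariate, protein-coding genes alone, other thresholds and each library left out. Simulated counts with known changes were used to check the test. At 16346977 to 20311338 counts per library, members with few counts are imprecise. Libraries of a group differed by more than sampling noise (chi-squared per degree of freedom 1.68 to 3.60 over 12 pairs), so none was a copy of another. That does not show that they came from separate animals. The common coefficient of variation between libraries beyond counting noise, from edgeR, was 3.86%.

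Coding sequences were aligned with mafft 7.526, and start windows, from RefSeq on GRCm38.p6, with Biopython 1.88. The members and lists were chosen with earlier results of these data known. Genes named were the 10 members, other Nlrp genes, up to 4 called genes of each list with the smallest p (or 2 uncalled), tested genes within 250 kb of called members, and the 5 most like Nlrp4f. From the cell-type lists the text names only some of these.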

Additional observations from a re-analysis of the deposited data

How the results depend on the processing

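Nlrp4f was called lower in all 19 alternatives that gave it a value, with log2 fold changes of -1.59 to -1.33 and edgeR, DESeq2 or limma adjusted p of 2.03e-08 to 0.000896. Nlrp4c lost its call in 3 of 19 and Nlrp9b in 8 of 17, all without a change of direction. The count of members called, 3, became 1 with the somatic and blood covariate and at an adjusted p under 0.01. It was 1 to 3 with a library left out, the 1 arising without KO replicate 3 and without WT replicate 2. With no filter on low counts it was 2. It was 2 of 3 tested both with at least 1 CPM in 4 libraries and with the test of DESeq2. Over all genes 1193 were called, against 405 with the covariate, 785 with the test of DESeq2, 678 at an adjusted p under 0.01, and 898 to 1040 with a library left out. With the covariate Nlrp5 turned to 0.53 (edgeR adjusted p = 0.663); the cause was not tested. DESeq2 gave Nlrp9b and Nlrp4e no adjusted p. Upper-quartile scaling gave 633 higher and 555 lower, library totals alone 426 and 836, against 544 and 649, with the same 3 members called lower in each. With the replicate number as a block 3 members and 1249 genes were called. Deviations of same-numbered libraries correlated at -0.01 to 0.02, so no pairing by number was seen. Counting noise could hide a weak one. Depth limits the members without a test, with 1 to 38 counts over 8 libraries. The median of the 5 tested members, -0.71, was -1.22 with the covariate, and -1.16 to -0.65 with a library left out. Nlrp9b had the lower log2 fold change of the pair Nlrp9b and Nlrp4f with the covariate, without WT replicate 1 and without WT replicate 4.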
